A study of Mus musculus with 27 samples.

Results

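The skeletal muscle genes Myod1, Myog, Myf5, Myh3, Myh8, Acta1, Actc1, Tnnt1, Ttn and Ckm were followed across all 9 groups of a mouse RNA sequencing study of Foxm1, a forkhead transcription factor of the dividing cell. These 10 genes, of 24062 gene symbols counted, were chosen by symbol as myogenic factors and sarcomere genes, with earlier results of the same counts in view. The choice names no comparison, so every value of these 10 genes below is a description and carries no p-value. Where a gene is said to have passed, its adjusted p in edgeR's quasi-likelihood test over all genes was under 0.05, and nothing is read from that beyond the value itself.

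All mice were C57BL/6. Mouse embryonic fibroblasts, primary cells grown out of embryos, were early-passage cultures that divided asynchronously and were harvested near 90% confluence. Experiment 1 held fibroblasts labelled WT (wild type), KO (knockout) and KO-NTD, experiment 2 held fibroblasts labelled WT, WT-NTD, Het (heterozygous) and Het-NTD, and whole lungs labelled WT or Het came from animals 10 days old. Each group had 3 libraries. What NTD stands for is not in the labels, which also name neither the Foxm1 allele nor what drives the NTD form. Nothing states that libraries came from separate embryos or animals, and a p-value below then covers the spread among libraries, which may be technical. For the muscle genes 3 libraries stood apart from their groups, KO 1 and KO-NTD 2 in experiment 1 and WT 1 in lung, and results that rest on them are given with and without them. Total counts were 47380829 to 69517834 per library in experiment 1, 30247046 to 46625753 in experiment 2 and 29730693 to 50326730 in lung. Foxm1 itself was 139 to 152 CPM (the count relative to library size, scaled by TMM within each experiment) in the libraries labelled KO and 134 to 140 CPM in their WT, so its counts did not mark the KO label. In experiment 2 the Foxm1 range was 126 to 131 CPM for Het libraries and 145 to 149 CPM for WT libraries, and 293 to 406 CPM in the NTD libraries of both experiments.

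Myod1, Myf5 and Myog are transcription factors that bind E-boxes with E proteins and switch on the muscle programme, Myod1 and Myf5 in myoblasts and Myog as they stop dividing and differentiate. Differentiating cells then build sarcomeres from embryonic myosin (Myh3) and perinatal myosin (Myh8), the striated muscle actins (Acta1, skeletal, and Actc1, cardiac and fetal skeletal), slow troponin T (Tnnt1) and titin (Ttn), and mature fibres make creatine kinase (Ckm). Serum response factor binds CArG boxes of actin genes, and MEF2 factors act beside the myogenic factors. Embryonic fibroblast cultures are grown from whole embryo tissue, which also holds myoblasts. Whole lung can hold cardiac muscle, which sheathes the pulmonary veins of mice, and skeletal muscle of neighbouring tissue. Actc1 and Ttn are made in heart as well as in skeletal muscle.

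In experiment 2, Myog, Myh3, Myh8, Acta1 and Actc1 were higher in every Het library than in every WT library. So was Myod1, for which no RefSeq window was found. The stretches before the starts of the first 5 genes are shown. They are the 250 bases upstream of the RefSeq start on build GRCm38.p6, 5′ to 3′ on the gene's strand: Myog at chr1:134289754-134290003 (plus strand), Myh3 at chr11:67078050-67078299 (plus), Myh8 at chr11:67276874-67277123 (plus), Acta1 at chr8:123894776-123895025 (minus) and Actc1 at chr2:114052876-114053125 (minus). Capitals mark E-boxes (CANNTG), CArG boxes (CCWWWWWWGG) and MEF2 sites (YTAWWWWTAR), searched on both strands, and no marked match overlaps another. N is any base, W is A or T, Y is C or T, and R is A or G. Near matches to these patterns are not marked, so a window without a mark can still hold a variant site.
Myog: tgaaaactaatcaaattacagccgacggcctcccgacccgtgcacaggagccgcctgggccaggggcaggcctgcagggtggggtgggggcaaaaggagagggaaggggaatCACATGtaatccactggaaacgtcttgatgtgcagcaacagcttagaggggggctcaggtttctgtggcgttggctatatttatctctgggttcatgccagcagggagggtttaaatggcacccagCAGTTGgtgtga
Myh3: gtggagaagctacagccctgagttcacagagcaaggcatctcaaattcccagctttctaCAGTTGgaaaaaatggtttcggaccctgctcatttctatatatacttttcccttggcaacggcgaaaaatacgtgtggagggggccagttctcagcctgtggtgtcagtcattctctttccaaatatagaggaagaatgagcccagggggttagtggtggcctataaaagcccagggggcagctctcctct
Myh8: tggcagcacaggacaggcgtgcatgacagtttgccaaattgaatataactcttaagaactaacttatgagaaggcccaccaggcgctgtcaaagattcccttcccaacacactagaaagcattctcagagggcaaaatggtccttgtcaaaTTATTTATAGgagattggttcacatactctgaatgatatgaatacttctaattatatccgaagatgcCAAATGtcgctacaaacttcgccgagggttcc
Acta1: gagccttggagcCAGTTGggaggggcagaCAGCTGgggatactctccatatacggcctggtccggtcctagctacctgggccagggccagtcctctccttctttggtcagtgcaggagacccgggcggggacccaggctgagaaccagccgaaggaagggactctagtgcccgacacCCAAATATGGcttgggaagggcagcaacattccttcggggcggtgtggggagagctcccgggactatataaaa
Actc1: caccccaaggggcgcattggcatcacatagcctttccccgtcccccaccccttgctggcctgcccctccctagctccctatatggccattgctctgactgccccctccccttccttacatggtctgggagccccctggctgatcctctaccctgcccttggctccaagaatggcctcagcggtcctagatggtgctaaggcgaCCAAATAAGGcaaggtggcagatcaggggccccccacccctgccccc
Myog and Acta1 each had 2 E-boxes, Myh3 and Myh8 had 1 each, and Actc1 had 0. Acta1 had a CArG box that began 73 bases before its start and Actc1 had one that began 47 bases before its start, while Myh8 had a MEF2 site 99 bases before its start. Of all 32851 RefSeq promoter windows of this length, 66.2% held an E-box, 1.47% a CArG box and 2.92% a MEF2 site. RefSeq windows were found for 9 of the 10 genes. These matches are letters in a window and no binding was measured.

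Counting could mix some of these genes with close relatives. Of all 50-base stretches of the Myh8 transcript, 21.4% were also found in Myh2, Myh1 or Myh4. The share was 4.81% for Myh3 (with Myh13, Myh2 and Myh1) and 11.7% for Ckm (with A930016O22Rik, whose exons overlap it). For Acta1 the share was 2.22% (foremost with Gm47692, Actb, the cytoplasmic actin, and Gm8543), and for Ttn 0.198% (with Gm13938). The share was 0 for Myod1, Myog, Myf5, Actc1 and Tnnt1. The library protocol does not mark strand, so reads of Ckm and A930016O22Rik could not be told apart. On GRCm38, Myh3 (chr11:67078300-67102291) and Myh8 (chr11:67277124-67308634) are neighbours in the myosin cluster, with 41 and 39 exon blocks in the GENCODE M21 annotation, and Acta1 lies at chr8:123891769-123894751.

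In experiment 2, 6 of the 10 genes were higher in every Het library than in every WT library: Myod1, Myog, Myh3, Myh8, Acta1 and Actc1. Of all symbols with a count in these groups, 14.2% showed the same order. Among the 6 of these genes abundant enough for the test, Myh3 and Myh8 passed, where 7.89% of all 14314 tested genes were higher and 8.61% lower in Het. Myh3 and Myh8 met the filter on low counts only through the Het and Het-NTD libraries, where they were high. A fall could therefore not have been called for them, here or between Het-NTD and WT-NTD. In bulk RNA, more cells that make a transcript and more of it per cell cannot be told apart.

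Myod1, which starts the programme, had 4, 6 and 4 counts in Het 1, 2 and 3 and 0, 2 and 0 counts in WT. The summed ratio at equal depth was 6.64 (95% interval 1.53 to 60.2, counting error only). An excess of even counts in all libraries leaves it unsettled whether both reads of a pair were counted, and such intervals would then be too narrow. Myog, the differentiation factor, had 7, 8 and 16 counts in Het and 0, 0 and 2 counts in WT, a ratio of 14.7 (3.74 to 127). Both were below the filter on low counts and entered no test. Myf5, the other early factor, had 0 counts in Het and Het-NTD and 2 counts in a single WT library of experiment 2.

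Myh3, the embryonic myosin, had 48, 40 and 88 counts in Het and 0, 9 and 2 counts in WT. Every Het library was above every WT library, at 1.53 ± 0.80 CPM (SD, n = 3) against 0.096 ± 0.120 CPM, and the fitted change was 3.92 ± 0.77 (SE) on the log2 scale, which passed. Myh8, the perinatal myosin, had 11, 21 and 38 counts in Het and 4, 9 and 1 counts in WT. Its groups also did not overlap, with 0.614 ± 0.406 CPM in Het and 0.122 ± 0.102 CPM in WT, and the change of 2.27 ± 0.68 log2 passed. That call for Myh8 was lost when WT 1, WT 3, Het 2 or Het 3 was left out, with changes of 1.63 to 3.10 log2 over all alternatives given.

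Acta1, skeletal actin, was the most abundant of these genes in fibroblasts. It had 2518, 1529 and 1948 counts in Het and 688, 331 and 665 counts in WT, which is 50.7 ± 11.1 against 15.2 ± 5.79 CPM (SD, n = 3). The groups did not overlap, and the change of 1.74 ± 0.54 log2 did not pass, although it did with DESeq2 and with the 2 groups fitted alone. Actc1 had 34, 24 and 27 counts in Het and 11, 19 and 4 counts in WT. The 3 Het libraries were above the 3 WT libraries, and the change of 1.25 ± 0.51 log2 did not pass.

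The remaining sarcomere genes overlapped between Het and WT. Tnnt1 had 36, 20 and 25 counts against 26, 20 and 9 counts (0.49 ± 0.43 log2), and Ttn had 10, 18 and 13 counts against 12, 12 and 8 counts (0.29 ± 0.39 log2). Neither passed. Ckm, the marker of mature fibres, had 0, 0 and 2 counts in Het and 0, 0 and 1 counts in WT.

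**Figure D1:**
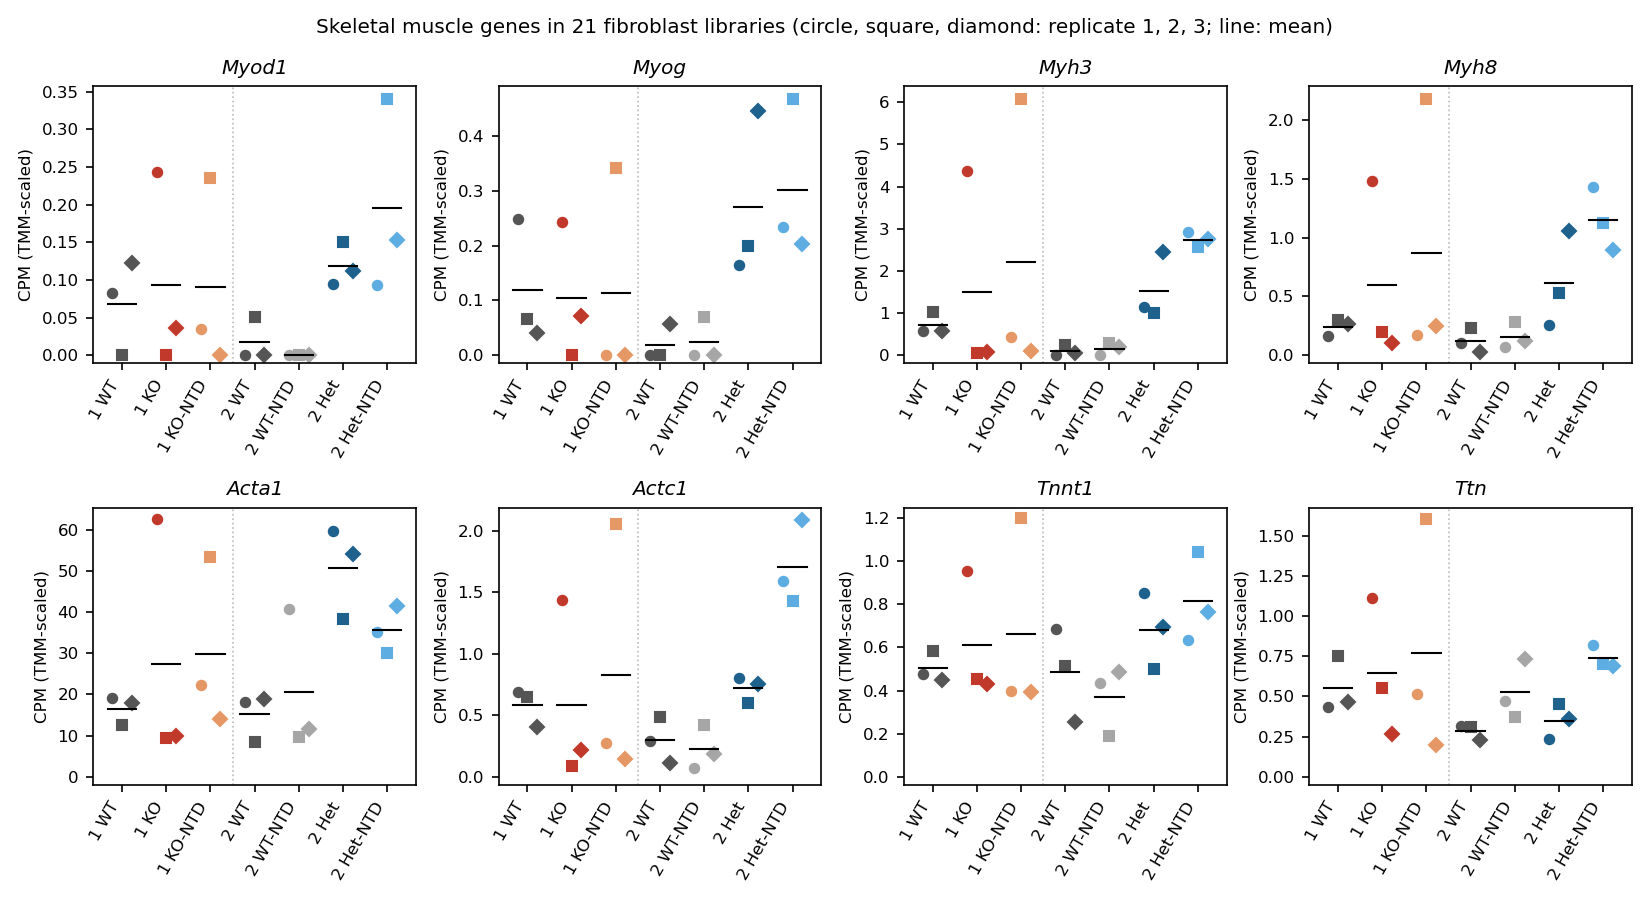
CPM (scaled by TMM within each experiment, linear axes that differ between panels) of 8 of the muscle genes in the 21 fibroblast libraries, grouped by experiment and label, with a line at each group mean and a circle, square and diamond for replicates 1, 2 and 3. Het and Het-NTD libraries of experiment 2 sit above WT and WT-NTD for Myh3, from 1.0 to 2.91 CPM against at most 0.280 CPM. In experiment 1 single libraries, KO 1 and KO-NTD 2, stand above the other 7 in every panel but Myog. For Myog, WT 1 (0.249 CPM) lies just above KO 1 (0.243 CPM).

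The comparison of Het-NTD with WT-NTD, which was added after its values were seen, uses other libraries of the same experiment. Here 6 of the 8 genes with a count were higher in every Het-NTD library than in every WT-NTD library: Myod1, Myog, Myh3, Myh8, Actc1 and Tnnt1. Of all symbols with a count, 13.7% showed that order. Of the 6 genes tested, Myh3, Myh8 and Actc1 passed, where 5.24% of all tested genes were higher and 6.24% lower in Het-NTD.

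Myod1 had 4, 16 and 6 counts in Het-NTD 1, 2 and 3 and 0 counts in all 3 WT-NTD libraries, so it was at least 7.10-fold higher against a floor of 3 counts over the group. Myog had 10, 22 and 8 counts in Het-NTD and 0, 3 and 0 counts in WT-NTD, a ratio of 10.9 (95% interval 3.48 to 55.2). Het-NTD 2 had the most counts of both factors among the 12 libraries of experiment 2.

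Myh3 had 124, 120 and 108 counts in Het-NTD and 0, 12 and 6 counts in WT-NTD. At 2.74 ± 0.178 CPM (SD, n = 3) against 0.154 ± 0.142 CPM, the Het-NTD libraries were tightly grouped and far above WT-NTD, a change of 4.02 ± 0.70 log2 that passed. Myh8 had 61, 53 and 35 counts in Het-NTD and 2, 12 and 4 counts in WT-NTD, and its change of 2.78 ± 0.63 log2 passed. It no longer passed without Het-NTD 1 or without WT-NTD 3, with changes of 2.46 to 3.55 log2 over all alternatives.

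Actc1 had 68, 67 and 82 counts in Het-NTD and 2, 18 and 6 counts in WT-NTD. The groups were 1.70 ± 0.344 and 0.223 ± 0.180 CPM (SD, n = 3), and the change of 2.83 ± 0.51 log2 passed. Acta1 had 1494, 1411 and 1630 counts in Het-NTD and 1215, 412 and 382 counts in WT-NTD, so the groups overlapped through WT-NTD 1, and the change was 0.80 ± 0.53 log2. WT-NTD 1 had 0 counts of Myh3 and 2 counts each of Myh8 and Actc1, and it had the highest summed smooth muscle marker level of the fibroblasts, 8929 CPM over 10 genes. Without WT-NTD 1 the Acta1 change was 1.74 log2 and passed. The part of smooth muscle genes in the Acta1 level was not tested.

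Tnnt1 had 27, 49 and 30 counts in Het-NTD and 13, 8 and 16 counts in WT-NTD. Its groups did not overlap, and the change of 1.17 ± 0.45 log2 did not pass. Ttn had 35, 33 and 27 counts in Het-NTD and 14, 16 and 24 counts in WT-NTD, with a change of 0.50 ± 0.35 log2 that did not pass and groups that overlapped in CPM. Ckm and Myf5 had 0 counts in all 6 libraries.

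**Figure D2:**
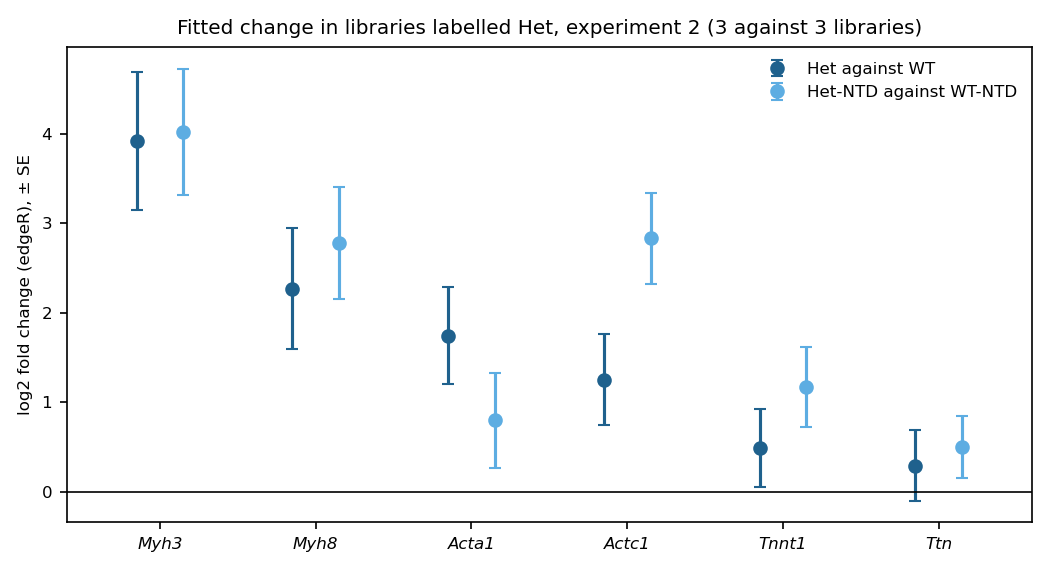
Fitted log2 change (y axis) with its standard error for the 6 tested muscle genes, Het against WT (dark) and Het-NTD against WT-NTD (light), 3 libraries in each group. Both myosins lie above 2 in both comparisons, Actc1 is at 1.25 and 2.83, Acta1 at 1.74 and 0.80, and Tnnt1 and Ttn lie nearer 0.

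The NTD label was also compared within each genotype, on libraries shared with the comparisons above. Between Het-NTD and Het, Myh3, Actc1 and Ttn did not overlap and were higher in Het-NTD, by 0.85 ± 0.55, 1.24 ± 0.45 and 1.07 ± 0.36 log2, and none passed. These are 3 of the 9 genes with a count, and 7.13% of all symbols with a count showed that order. Acta1 was 35.5 ± 5.75 CPM in Het-NTD and 50.7 ± 11.1 CPM in Het (SD, n = 3), with overlapping libraries. In that comparison 0.00699% of all genes were higher and 0.00699% lower. Between WT-NTD and WT, changes ran from −0.42 ± 0.47 (Tnnt1) to 0.86 ± 0.38 log2 (Ttn), none passed, and 0.014% of all genes were higher and 0% lower. Ttn was also higher in every WT-NTD library than in every WT library, the only one of the 10 genes in that order, which 4.08% of all symbols showed. Whether the NTD difference depends on the Het label was tested as an interaction, which edgeR called for 0 of 14314 genes (711 at an unadjusted p under 0.05).

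In experiment 1 the highest levels of most of these genes lay in single libraries and not in all libraries of a label. KO 1 and KO-NTD 2 were the highest pair of the 9 libraries for 7 of the 10 genes (Myod1, Myh3, Myh8, Acta1, Actc1, Tnnt1 and Ttn), where 9.75% of all tested genes and 15 of 69 other skeletal muscle genes (21.7%) had that pair on top. The fast troponin I gene Tnni2, looked up after its values were seen, had 1 count in KO 1 and 8 to 31 in the 7 libraries outside the pair. None of the 7 genes tested passed. In KO against WT, 0.124% of all genes were higher and 0.323% lower. In KO-NTD against KO the shares were 0.00687% and 0%, and in KO-NTD against WT they were 0.0619% and 0.378%. KO-NTD against WT and KO against WT share the WT libraries, and KO-NTD against KO shares libraries with both.

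Myh3 had 28, 61 and 28 counts in WT, 215, 3 and 4 counts in KO, and 25, 284 and 6 counts in KO-NTD. KO 1 was 4.28 times and KO-NTD 2 was 5.97 times the highest of the other 7 libraries in CPM. KO 2, KO 3, KO-NTD 1 and KO-NTD 3 were below every WT library. Myh8 had 8, 18 and 13 counts in WT, 73, 14 and 6 in KO, and 10, 102 and 14 in KO-NTD. Myh4, an adult fast myosin that shares stretches with Myh8, had 23 counts in KO 1, 25 in KO-NTD 2 and at most 4 in the other 7.

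Acta1 had 917, 759 and 881 counts in WT, 3092, 662 and 548 counts in KO, and 1292, 2488 and 781 counts in KO-NTD. KO 1 was 2.82 times and KO-NTD 2 was 2.39 times the highest of the other 7 libraries in CPM. Actc1 had 33, 39 and 20 counts in WT, 71, 6 and 12 in KO, and 16, 96 and 8 in KO-NTD. The same pair was on top, and KO 2, KO 3, KO-NTD 1 and KO-NTD 3 were below every WT library.

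Myod1 had 4, 0 and 6 counts in WT, 12, 0 and 2 in KO, and 2, 11 and 0 in KO-NTD. Myog had 12, 4 and 2 counts in WT, 12, 0 and 4 in KO, and 0, 16 and 0 in KO-NTD, so WT 1 was as high as KO 1. Tnnt1 had 47 counts in KO 1 and 56 in KO-NTD 2 against 22 to 35 in the other 7, and Ttn had 55 and 75 counts against 11 to 45. Ckm had 4 counts in KO 1 and 0 or 1 in the others, and Myf5 had 2 counts in WT 1 and 0 in the others.

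The group changes of experiment 1 rested on that pair. Myh3 was 1.02 ± 1.73 log2 in KO against WT and −3.65 log2 without KO 1 and KO-NTD 2. Acta1 moved from 0.72 ± 0.79 to −0.79 log2, Actc1 from −0.03 ± 1.17 to −1.98 log2, and Myh8 from 1.25 ± 1.22 to −0.65 log2. For KO-NTD against WT, Myh3 moved from 1.59 ± 1.74 to −1.42 log2, Myh8 from 1.80 ± 1.22 to −0.22 log2 and Actc1 from 0.49 ± 1.16 to −1.46 log2. Acta1 moved from 0.85 ± 0.79 to 0.13 log2.

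The fusion and nerve junction list held genes of different patterns. Tmem8c, the older symbol of the fusogen myomaker, had 16 counts in KO 1 and 16 in KO-NTD 2 and at most 3 in the other 7 libraries of experiment 1. In experiment 2 it had 14, 10 and 10 counts in Het-NTD, 3, 8 and 6 in Het, 0, 2 and 2 in WT, and 0, 2 and 0 in WT-NTD. Chrng, the fetal subunit of the acetylcholine receptor of muscle, had 9, 12 and 6 counts in Het-NTD, 0, 0 and 2 in Het, 0 in WT, and 0, 4 and 0 in WT-NTD. In experiment 1 Chrng had 10 counts in KO 1, 6 in KO-NTD 2 and at most 2 in the other 7 libraries. These 2 genes were singled out after their values were seen and were below the filter of the fit. Among the tested genes of the list, Chrna1 and Chrnb1 also had KO 1 and KO-NTD 2 on top. Musk, the kinase of the nerve junction, and Colq, which anchors acetylcholinesterase, did not. Musk had 2 and 6 counts in KO 1 and KO-NTD 2, and 10 and 9 in KO 2 and KO 3. Colq had 22 and 6 counts in KO 1 and KO-NTD 2, and 39 in KO-NTD 1. Pax7, the marker of muscle stem cells, had at most 2 counts in each fibroblast library, and Myf6, the late myogenic factor, had 4 counts in 1 library and 0 in the other 20.

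The levels can be ordered between genes only per length of exon. Length here is that of all annotated exons of a gene merged. For Myh8 and Tnnt1 it is 11772 and 2204 bases, against 6149 and 1059 bases in the longest coding transcript. With transcript length, Tnnt1 would lie above Actc1 and Myh8 above Myod1 in Het, so these places in the order depend on the choice. In Het, Acta1 was 33.0 CPM per kb, followed by Actc1 at 0.444, Tnnt1 at 0.310, Myh3 at 0.252, Myog at 0.181, Myod1 at 0.0638, Myh8 at 0.0522, Ckm at 0.00637 and Ttn at 0.00299 CPM per kb. In WT of experiment 2, Acta1 was 9.88 and Tnnt1 0.220 CPM per kb, and Myh3 and Myh8 were 0.0158 and 0.0103 CPM per kb. Across the fibroblast groups, mean Myh3 was highest in Het-NTD (2.74 CPM), then KO-NTD (2.21), Het (1.53), KO (1.49), WT of experiment 1 (0.723), WT-NTD (0.154) and WT of experiment 2 (0.096). KO-NTD and KO, with SDs of 3.36 and 2.48 CPM, overlapped with all groups beside them in that order, Het-NTD lay above Het in every library, and WT-NTD and WT of experiment 2 overlapped. The experiments were scaled apart, so an order across them is approximate.

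In lung, Acta1 and Actc1 were the most abundant of these genes, at 105 CPM per kb each in WT and 86.5 and 94.8 CPM per kb in Het, and 1 library, WT 1, stood apart. WT 1 was the lowest of the 6 lungs for 9 of the 10 genes, for 71 of 110 other skeletal muscle genes tested (64.5%) and for 14.3% of all genes tested. No gene was called between Het and WT lungs by edgeR (0% higher and 0% lower, 114 of 15933 at an unadjusted p under 0.05), and DESeq2 called 1.

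Acta1 had 13, 9108 and 7003 counts in WT lungs 1, 2 and 3 and 6049, 3979 and 5446 counts in Het lungs. WT 1 was at 0.158% of the median of the other 5 in CPM, although its smooth muscle actin Acta2 had 21681 counts, 93.5% of that median. Myh8 had 36, 6405 and 4456 counts in WT and 2325, 2531 and 3870 counts in Het, with WT 1 at 1.14% of the median of the others. The adult fast myosin Myh4 had 1 count in WT 1 and 313 to 569 in the others.

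Actc1 did not share that pattern: it had 5135, 7712 and 5083 counts in WT and 6163, 5797 and 6247 counts in Het, and WT 1 was at 82.3% of the median of the others. Of 4 cardiac markers, Myh6, the atrial myosin, was at 102% of the median of the others in WT 1, Myl7 at 82.6%, Tnni3 at 76.0% and Tnnt2 at 72.9%. WT 1 was the lowest lung in CPM for Tnni3 and Tnnt2 and not for Myh6, Myl7 or Actc1. The summed level of 15 cardiac markers was 242 to 517 CPM in WT lungs and 276 to 393 CPM in Het lungs, against 9.63 to 20.0 CPM in all fibroblast libraries. Myh6 had at most 10 counts in any fibroblast library. The part of cardiac muscle in the lung level of Actc1 was not tested.

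Ckm had 122, 2186 and 1653 counts in WT and 776, 738 and 1390 counts in Het, and Ttn had 355, 2130 and 1067 counts in WT and 1372, 827 and 670 counts in Het. WT 1 was at 11.2% of the median of the others for Ckm and at 27.1% for Ttn. Tnnt1 had 206, 255 and 231 counts in WT and 427, 323 and 337 counts in Het, with WT 1 at 66.8% of that median. For these 3 genes WT 1 lay nearer to the rest than for Acta1 and farther than for Actc1.

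Myh3 had 24, 169 and 158 counts in WT lungs and 50, 65 and 146 counts in Het lungs. Myog had 3, 61 and 46 counts in WT and 54, 27 and 39 in Het, Myf5 had 1, 14 and 12 in WT and 3, 42 and 6 in Het, and Myod1 had 0, 21 and 5 in WT and 2, 8 and 2 in Het. Every one of these had its lowest count in WT 1. Lung differed from fibroblasts in the order of the myosins: per kb, Myh8 was 9.29 CPM in WT lung and Myh3 0.574 CPM, while in Het fibroblasts Myh3 was above Myh8.

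Het and WT lungs overlapped for each of the 9 genes tested, and none passed. The fitted changes ran from −0.79 ± 0.70 (Myh3) to 0.61 ± 1.10 log2 (Myf5). Without WT 1, Myh8 moved from −0.64 ± 1.28 to −1.21 log2, Acta1 from −0.28 ± 1.46 to −0.86 log2 and Ckm from −0.77 ± 0.90 to −1.31 log2, and still none passed.

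**Figure D3:**
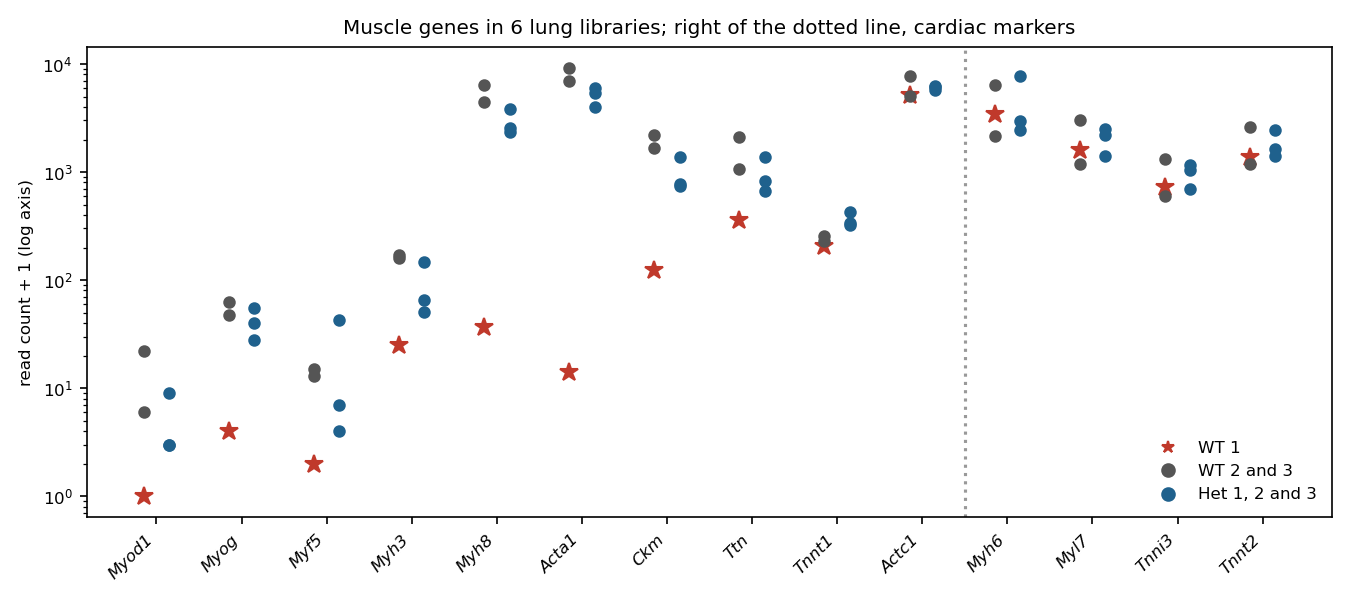
Read counts plus 1 (log axis) of the 10 muscle genes, and right of the dotted line 4 cardiac markers, in the 6 lung libraries, with WT 1 as a star. WT 1 lies near the bottom for Myh8 and Acta1 (36 and 13 counts) and close to the other libraries for Actc1 and for the cardiac markers.

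Other skeletal muscle genes were read from 5 lists of 121 symbols outside the 10 genes, of which 119 were in the table. In Het against WT fibroblasts, 7 of 67 tested list genes rose and 7 fell (median 0.0036 log2, against 0.0052 over all genes tested), with 7.89% and 8.61% of all genes as the background. In Het-NTD against WT-NTD, 9 rose and 2 fell (median 0.11, against 0.0036 over all genes). These lists were written with earlier results of the counts known.

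Among 16 tested thick filament and Z disc genes, 2 rose and 1 fell in Het against WT. Myl1, a light chain of fast and embryonic myosin, had 4, 12 and 12 counts in Het and 0, 0 and 2 counts in WT (3.52 ± 0.99 log2, edgeR adjusted p = 0.0299), a call that was lost without WT 1, WT 2, Het 2 or Het 3. Mybpc1, slow myosin-binding protein C, had 28 against 4 summed counts (2.64 ± 0.73 log2, edgeR adjusted p = 0.0336), and that call was lost without any 1 of the 6 libraries and with no filter. Myom1, an M-band protein, fell by 0.95 ± 0.22 log2 (edgeR adjusted p = 0.0117).

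In Het-NTD against WT-NTD, 6 of the same 16 rose and 0 fell. The filter on low counts bears on that tally and on the totals over all lists. Myl1 and Mybpc1 had too few counts in WT and WT-NTD to be tested without the Het and Het-NTD libraries. A fall could therefore not have been called for these genes in either comparison. Myl1 had 19, 38 and 27 counts in Het-NTD and 0, 2 and 0 in WT-NTD (4.89 ± 0.89 log2, edgeR adjusted p = 0.00424). Mybpc1 had 12, 22 and 10 counts in Het-NTD and 0 in WT-NTD, at least 12.01-fold higher against a floor of 3 counts over the group (edgeR adjusted p = 0.00423). Mylpf, the fast regulatory light chain, had 82, 69 and 50 counts against 19, 19 and 23 (1.399 ± 0.27 log2, edgeR adjusted p = 0.00647). Actn2, alpha-actinin of the Z disc, had 41, 23 and 19 counts against 0, 7 and 3 (2.76 ± 0.63 log2, edgeR adjusted p = 0.0146), and its call was lost without Het-NTD 1 or WT-NTD 3. Actn3 and Myl4 were the other 2 that rose. The Myl4 call was lost without any 1 of the 6 libraries, with no filter and with the 2 groups fitted alone, and the Actn3 call without any 1 of them but WT-NTD 1. The same light chains were high in KO 1 and KO-NTD 2: Myl1 had 40 and 54 counts there and at most 4 in the other 7 libraries of experiment 1.

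Calcium handling and muscle energy genes moved both ways in Het against WT, with 2 of 20 higher and 2 lower. Dysf, a membrane repair protein of muscle, rose from 35.2 ± 2.10 to 65.4 ± 2.63 CPM (SD, n = 3; 0.89 ± 0.07 log2, edgeR adjusted p = 2.17e-05). Srl, sarcalumenin, rose by 0.55 ± 0.14 log2 (edgeR adjusted p = 0.0201). Cav3, the muscle caveolin, fell by 2.15 ± 0.62 log2 (edgeR adjusted p = 0.033) and Eno3, muscle enolase, fell by 0.45 ± 0.12 log2 (edgeR adjusted p = 0.0263). The Srl call was lost without WT 2, Het 1 or Het 3, the Cav3 call without any 1 library but WT 2, and the Eno3 call without WT 2, WT 3, Het 2 or Het 3 or with the 2 groups fitted alone. In Het-NTD against WT-NTD 3 of 20 rose: Dysf by 1.09 ± 0.07 log2 (edgeR adjusted p = 4.39e-06), Ryr1, the calcium release channel of skeletal muscle, by 1.31 ± 0.28 log2 (edgeR adjusted p = 0.0114), and Srl by 0.50 ± 0.14 log2 (edgeR adjusted p = 0.0369), which was lost without Het-NTD 2, Het-NTD 3, WT-NTD 1 or WT-NTD 2 or with the 2 groups fitted alone.

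Of 17 tested regulators and progenitor genes, 3 rose and 3 fell in Het against WT. Megf10, a receptor of muscle stem cells, rose from 24.3 ± 3.94 to 48.2 ± 7.53 CPM (SD, n = 3; 0.99 ± 0.18 log2, edgeR adjusted p = 0.00512), and Ncam1, an adhesion molecule also made by myoblasts, rose by 0.32 ± 0.08 log2 (edgeR adjusted p = 0.0234). Mef2c, a partner of the myogenic factors, fell by 0.89 ± 0.20 log2 (edgeR adjusted p = 0.0128), and Eya1, a cofactor of homeodomain proteins, fell by 1.82 ± 0.43 log2 (edgeR adjusted p = 0.0185). Mef2d rose and Mef2a fell as well. The Mef2c call was lost without Het 3, the Eya1 call without WT 2 or Het 2, and the Ncam1 call without WT 2, WT 3 or Het 3. The Mef2d call was lost without WT 2, WT 3, Het 1 or Het 3, and the Mef2a call without any 1 library but WT 1. Fitting the 2 groups alone also lost Eya1, Ncam1, Mef2d and Mef2a. In Het-NTD against WT-NTD, 0 of 17 rose and 2, Mef2a and Mef2c, fell, by 0.33 ± 0.07 log2 (edgeR adjusted p = 0.0119) and 0.69 ± 0.20 log2 (edgeR adjusted p = 0.0488). The first was lost without Het-NTD 2, and the second without any 1 library but WT-NTD 1, with no filter or with the 2 groups fitted alone.

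Of 10 tested thin filament genes only Neb, nebulin, was called in Het against WT, where it fell by 0.98 ± 0.31 log2 (edgeR adjusted p = 0.048, lost without any 1 library but WT 2, with no filter or with the 2 groups fitted alone), and 0 were called in Het-NTD against WT-NTD. None of 4 tested fusion and nerve junction genes was called in either comparison. Over the other comparisons, edgeR called 0 of the genes of these 5 lists: of 69 tested in KO against WT, KO-NTD against KO and KO-NTD against WT, 8, 5 and 10 had an unadjusted p under 0.05. Of 67 tested in Het-NTD against Het and WT-NTD against WT, 6 and 4 did, and of 110 tested in lung, 1 did. DESeq2 called 1, 0 and 4 in the experiment 1 comparisons, 0 and 1 in the others of experiment 2, and 0 in lung.

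Genes known to hold back the myogenic factors moved both ways. Of 16 tested, 4 rose and 2 fell in Het against WT. Snai1, a repressor that competes at E-boxes, rose by 0.62 ± 0.07 log2 (edgeR adjusted p = 0.000179) and Zeb1, a repressor that binds related sites, rose by 0.38 ± 0.06 log2 (edgeR adjusted p = 0.00107). Msx1, a homeodomain repressor of Myod1, had 30, 15 and 14 counts in Het and 115, 619 and 232 counts in WT (−4.09 ± 0.80 log2, edgeR adjusted p = 0.00885). Bhlhe40, a basic helix-loop-helix repressor, rose by 0.46 ± 0.11 log2 (edgeR adjusted p = 0.0141), and of the other 2 called, Sox9 rose and Id2, which sequesters E proteins, fell. The Bhlhe40 call was lost without WT 3 or Het 3, the Sox9 call without WT 3 or Het 1, and the Id2 call without Het 3, and all 3 were lost with the 2 groups fitted alone. In Het-NTD against WT-NTD, Zeb1, Snai1 and Bhlhe40 rose, and Msx1 (−2.90 ± 0.78 log2, edgeR adjusted p = 0.0409) and Hes1 fell. The Bhlhe40 call there was lost without any 1 library, and the Msx1 and Hes1 calls without any 1 library but WT-NTD 1. All 3 were lost with no filter on low counts, and the Msx1 call also with the 2 groups fitted alone. In experiment 1, where it was looked up after the calls above were seen, Msx1 had 25 counts in KO 1 and 28 in KO-NTD 2 against 86 to 879 in the other 7 libraries, and the 1 restrainer called there was Msx2, which fell by 2.14 ± 0.22 log2 in KO-NTD against WT (edgeR adjusted p = 0.00487).

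Levels of markers of other cell types also differed between these libraries. The summed level of 12 macrophage markers was 11.6 to 69.1 CPM in Het and 12.2 to 16.9 CPM in Het-NTD, against 168 to 203 CPM in WT and 68.5 to 163 CPM in WT-NTD. Of these 12 markers, 9 fell in Het against WT (median −2.47 log2) and 11 fell in Het-NTD against WT-NTD (median −3.24 log2), and none was at 0 in any fibroblast library. In experiment 1 the sum was 12.02 CPM in KO 1 and 9.83 CPM in KO-NTD 2, and at least 34.5 CPM in the other 7 libraries. Summed chondrocyte markers (8 genes) were 24.1 to 90.4 CPM in Het, 51.6 to 452 CPM in WT, 43.2 to 54.4 CPM in Het-NTD and 26.5 to 148 CPM in WT-NTD, so they overlapped in both comparisons. In experiment 1 that sum was 114 CPM in KO 1 and 104 CPM in KO-NTD 2, above KO-NTD 1 and KO-NTD 3 (48.2 and 74.3 CPM) and below the other 5 libraries. Of 7 tested lung epithelium and endothelium markers, 1 rose in Het against WT (median 2.19 log2) and 2 rose in Het-NTD against WT-NTD (median 1.21 log2), with 0 lower in either. The endothelial cadherin Cdh5 rose from 0.193 ± 0.102 to 1.42 ± 0.521 CPM in Het (SD, n = 3; edgeR adjusted p = 0.0046) and Sftpc was the other one in Het-NTD. The WT level of Cdh5 was low, and whether it would have met the filter without the Het and Het-NTD libraries was not tested. A fall of Cdh5 may therefore not have been possible to call. The summed level of these 11 markers was 3.84 to 8.92 CPM in Het, 3.81 to 6.50 CPM in WT, 6.60 to 8.83 CPM in Het-NTD and 3.16 to 7.09 CPM in WT-NTD, with 2 to 7 of them at 0 in each library. Of 10 smooth muscle markers, 2 fell in Het against WT (Myocd and Myh11, median of the list −0.18 log2) and 2 fell in Het-NTD against WT-NTD (Myocd and Lmod1, median −0.18 log2). Of 9 tested neural markers, 1, Map2, fell in both comparisons and 0 rose (medians 0.0585 and −0.1409 log2). In Het and WT the sums of 10 neural markers were 174 to 213 and 138 to 170 CPM, which did not overlap. In Het-NTD and WT-NTD these sums were 188 to 222 and 156 to 191 CPM, which overlapped. The part of these markers in the muscle gene levels was not tested. The fibroblast label matched its markers: Col1a1 had 511217 to 1065163 counts in every fibroblast library.

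**Figure D4:**
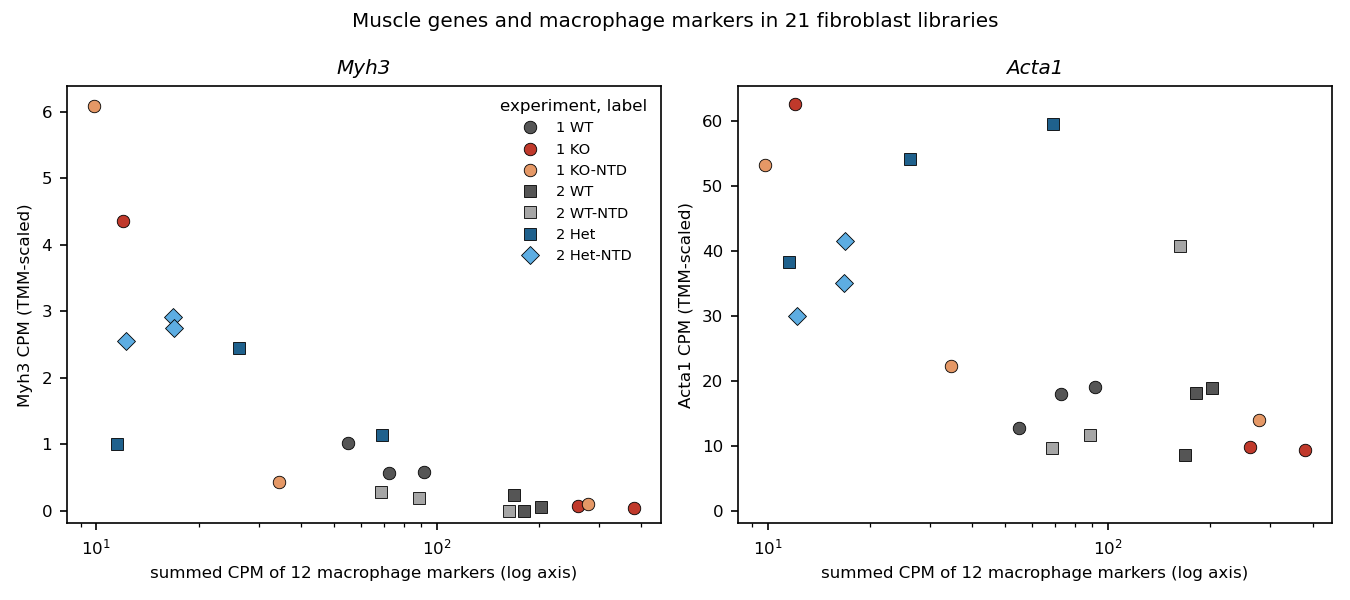
Myh3 (left) and Acta1 (right) in CPM against the summed CPM of 12 macrophage markers (log axis) in the 21 fibroblast libraries, with shapes and colours for experiment and label. Libraries with the most Myh3, KO 1, KO-NTD 2 and the Het-NTD libraries, lie at the left with sums of 9.83 to 16.9 CPM. Het 2 lies there too, at a sum of 11.55 CPM, with less Myh3 (1.0 CPM). WT-NTD 1 has high Acta1 (40.8 CPM) at a sum of 163 CPM.

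The genes outside the set with the pattern most like it were found by Pearson correlation with the mean log2 CPM of Myh3 and Acta1, the 2 genes abundant enough, over the 21 fibroblast libraries after subtracting each experiment's mean. Among 11475 candidates the highest were Egln3 (r = 0.948), Slc2a1 (r = 0.943), Map2k1 (r = 0.939), Prkar1b (r = 0.935) and Chst11 (r = 0.934). Egln3, a prolyl hydroxylase, was 18.2 ± 3.04 CPM in Het, 21.9 ± 1.43 in Het-NTD, 8.69 ± 1.18 in WT and 8.64 ± 1.11 CPM in WT-NTD (SD, n = 3). In KO 1 and KO-NTD 2 it was 27.3 and 26.7 CPM, against 7.52 to 18.4 CPM in the other 7 libraries. Slc2a1, the glucose transporter GLUT1, had 196 ± 9.36 CPM in the Het libraries and 153 ± 18.7 CPM in the WT libraries. Libraries can also resemble each other through depth, batch or culture, which was not tested, and the correlations are a description. In lung WT 1, where Acta1 was lowest, Egln3 was at 93.5% of the median of the other lungs.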

How the data were processed

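RNA was measured in 27 libraries from 9 groups of 3, prepared with a TruSeq RNA v2 kit from 200 ng RNA, per the labels' protocols, which does not mark strand. The authors deposited whole-number read counts per gene symbol. TopHat2 2.0.14, Bowtie2 2.2.6, Subread and featureCounts 1.4.6, and build mm10, are named per the submitters' processing notes, while the annotation and strand setting are not given in the sources used here. Among low counts (1 to 30), 61.5 to 67.3% per library were even. Counting intervals cover counting error only, and they are too narrow if both reads of a pair were counted, which was not settled.

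Counts of experiment 1, experiment 2 and lung were fitted apart with edgeR 4.0.16 (R 4.3.3, limma 3.58.1): filterByExpr with a minimum count of 10, TMM, a robust quasi-likelihood fit over all groups and Benjamini-Hochberg adjustment at 0.05 over 14551, 14314 and 15933 genes. The residual degrees of freedom were 6, 8 and 4. Standard errors are of the fitted log2 change. No replicate pair matched within counting noise (chi-square over genes of at least 5.66 per degree of freedom), and each library is 1 sample. The scripts were tested on simulated data. Alternatives were RLE size factors, DESeq2 1.42.0, no filter, a replicate block, only the groups compared, and leaving out each library. Het-NTD against WT-NTD and leaving out KO 1 and KO-NTD 2 together were added after the data were seen. Promoter windows came from RefSeq and gene models from GENCODE M21.

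The 10 genes and all lists were chosen with earlier results of these data known. Named were all 10 genes, up to 4 list genes with the lowest p among those called per list and comparison, the 5 genes most like Myh3 and Acta1 (average log2 CPM of at least 1, offset 0.5 CPM), and Foxm1 as a check of the labels. Other genes named, among them called list genes beyond those 4 and uncalled ones such as Tmem8c, Chrng, Pax7, Myf6 and Myh4, were chosen after their values were seen. Sequences and figures were made with Python 3.11.15, pandas 2.3.3 and matplotlib 3.10.9.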

Additional observations from a re-analysis of the deposited data

How the results depend on the processing

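Over 597 alternative values of the 10 muscle genes, 531 kept their direction, 0 called values reversed, and 95 moved by more than 1 SD. Myh3 passed under all 11 alternatives in Het against WT (3.34 to 5.64 log2) and in Het-NTD against WT-NTD (3.52 to 4.80 log2), and Actc1 under all 11 in the latter (2.44 to 3.71 log2). Of 37 list gene calls, restrainers included, 14 held under every alternative given.

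In KO against WT, 65 genes were called (18 higher, 47 lower), 449 with DESeq2 (231 higher, 218 lower), 36 with only the 2 groups and 209 without KO 1 and KO-NTD 2 (111 higher, 98 lower), and list genes went from 0 to 1 with DESeq2 and to 1 without that pair. In KO-NTD against KO, 1 gene was called, 26 with DESeq2, 2 with no filter and 13 without the pair. In KO-NTD against WT, 64 were called, 378 with DESeq2 (135 higher, 243 lower), 100 with only the 2 groups and 144 without the pair, and list genes went from 0 to 4 with DESeq2 and to 1 with the replicate block. In Het against WT, 2362 genes and 14 list genes were called, and 1389 and 7 with only the 2 groups. In Het-NTD against Het, 2 were called, 23 with DESeq2 and 20 with only the 2 groups. In WT-NTD against WT, 2 were called, 30 with DESeq2, 5 with no filter and 1 with only the 2 groups, and list genes went from 0 to 1 with DESeq2. In lung, 0 were called and 1 with DESeq2. The cause of these shifts was not tested.

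Leaving out 1 library gave 1304 (without Het 3) to 2547 genes and 4 to 12 list genes in Het against WT, 739 (without Het-NTD 1) to 1622 genes and 6 to 10 list genes in Het-NTD against WT-NTD, 24 (without KO 2) to 142 (without KO 1) genes and 0 to 1 list genes in KO against WT, 1 to 29 (without KO 1) and 0 in KO-NTD against KO, 34 (without WT 1) to 55 and 0 in KO-NTD against WT, 1 to 3 and 0 in Het-NTD against Het, 2 to 119 (without WT 1) and 0 to 2 in WT-NTD against WT, and 0 in lung.

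Replicate numbers are not stated to pair libraries, and deviations of same-numbered libraries correlated from −0.484 to 0.608 in experiment 1, −0.209 to 0.446 in experiment 2 and −0.338 to 0.12 in lung. With the replicate block, 52, 1 and 50 genes were called in the experiment 1 comparisons in the order above, 2557 in Het against WT, 1 in Het-NTD against Het, 4 in WT-NTD against WT, 1677 in Het-NTD against WT-NTD and 0 in lung, Acta1 passed in Het against WT, and the call of the list gene Myl4 in Het-NTD against WT-NTD was lost. No other list gene call was lost with the block. Myod1, Myog, Myf5 and Ckm had too few counts in fibroblasts of experiment 2 for a test, so depth limits what can be seen there.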
